A study of Mus musculus with 12 samples.

Results

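The 35 genes described here encode the enzymes that break down fatty acids in mitochondria and peroxisomes, 1 enzyme of ketone body formation, and proteins that carry, store or release fatty acids in liver. They were taken as a list of gene names by a rule that holds no measured value, although the list was drawn up with earlier results of these data known, and all 35 were found among the 14188 protein-coding genes of the liver RNA-seq table. In the grouping used here, 19 of them count as mitochondrial enzymes, Eci1 and Eci2 among them, and 5 as peroxisomal enzymes. A further 5 are acyl-CoA thioesterases and 6 handle lipid or set fuel choice. The label of the list speaks of ketogenesis, but Bdh1 was its 1 ketone body enzyme, so the values bear mainly on fatty acid oxidation.

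The sequenced livers came from 12 male mice, 6 of the PZH group and 6 of the control group. PZH is Pien Tze Huang, a traditional Chinese herbal medicine used for liver disease. GEO's labels give the strain as C57BL/8, whereas the study's methods give C57BL/6J, and no genetic change is named for either group. All 12 mice, 6 weeks old at the start, received CCl4 mixed with corn oil by intraperitoneal injection (10 µl/g, 2 injections per week), a treatment that injures hepatocytes and leads to fibrosis. The PZH group was given PZH by gavage (0.25 mg/g, 1 gavage per day) and the control group received double distilled water by the same route, and livers were taken in week 8. No mouse without CCl4 was among the 12, so the levels below cannot be placed against those of an uninjured liver. The values are FPKM, read fragments scaled to transcript length and library size, summed over the listed transcripts of each gene. Because FPKM is expressed per length, levels may be compared between genes.

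Fatty acids enter mitochondria as carnitine esters and are then shortened by repeated rounds of dehydrogenation, hydration, a second dehydrogenation and thiolysis, with the electrons of the first step passed on through the electron transfer flavoprotein. Peroxisomes shorten very long and branched chains by a similar route, and thioesterases release free fatty acids from acyl-CoA. In hepatocytes many of these genes are known targets of the nuclear receptor PPARα, whose dimer with RXR binds a direct repeat of AGGTCA.

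Among the 35 genes, 15 rose and 4 fell with PZH relative to control mice, and 16 were not called (limma on log2(FPKM + 1), Benjamini-Hochberg adjusted p under 0.05 over all genes). Of all 14188 genes, 12.7% were called higher and 32.1% lower by the same rule. The median log2 fold change was 0.27 over the 35 genes and -0.11 over all genes, and 25 of the 35 had a positive fold change. Each library is the whole liver RNA of 1 mouse, in which fewer cells of a type and less RNA per cell cannot be told apart. Because the median of all genes lay below 0, the comparison was also made on another scale. After division of each library by a median-ratio scale factor, 18 of the 35 were higher and 2 lower, with 19.8% of all genes higher and 19.3% lower, and the median of the 35 was 0.45. In 5 genes (Hadh, Etfa, Acot3, Acot4 and Acot12) every PZH mouse lay above every control mouse, and in 2 genes (Bdh1 and Plin2) every PZH mouse lay below. The same separation was found in 6.46% of all genes for higher and 17.9% for lower levels. Most shifts were small: by the study's rule of a 2-fold change at unadjusted P under 0.05, 1 gene was higher (Acot3) and 1 lower (Plin2), against 1.52% and 2.5% of all genes.

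**Figure D1:**
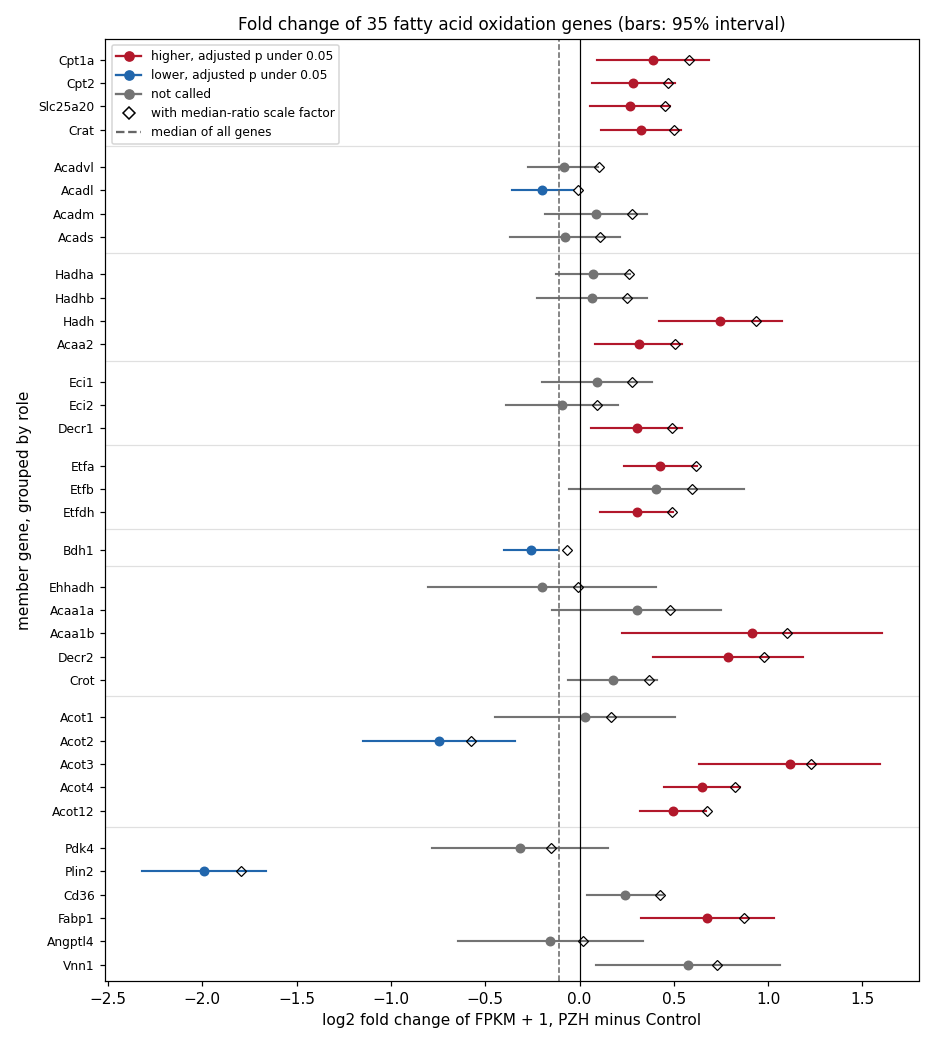
Log2 fold change of FPKM + 1 between the PZH and control groups (x axis, PZH minus Control, n = 6 mice each) for the 35 genes, grouped by role on the y axis. Filled points with bars give the estimate and its 95% interval, open diamonds the estimate with a median-ratio scale factor, and the dashed line the median of all genes at -0.11. The 4 carnitine shuttle genes lie to the right of 0, the 4 acyl-CoA dehydrogenases lie close to it, and Plin2 lies farthest to the left at -1.99.

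Of the called genes with a near match to the PPARα repeat, Fabp1, Acot12 and Plin2 are printed as examples. Acot4 and Etfa are not printed. The upstream sequences of the 3 examples are given here, with the stretch between Hadha and Hadhb, which start back to back. They are RefSeq sequences of the build GRCm38.p6, printed 5′ to 3′ on the strand of the gene up to the last base before any annotated transcript start, and they lie outside the exons of these genes. Capitals mark the match to AGGTCANAGGTCA, searched on both strands, and each match lies on the opposite strand, so that it is read here as the reverse complement. The Fabp1 stretch (chr6:71199629-71199826, + strand) and the Acot12 stretch (chr13:91741271-91741511, + strand) match with 1 mismatch. The Plin2 stretch (chr4:86670061-86670309, - strand) matches with 2 mismatches. The stretch between Hadha and Hadhb (chr5:30155163-30155247, + strand, 85 bases) holds no match and is printed without capitals.
Fabp1: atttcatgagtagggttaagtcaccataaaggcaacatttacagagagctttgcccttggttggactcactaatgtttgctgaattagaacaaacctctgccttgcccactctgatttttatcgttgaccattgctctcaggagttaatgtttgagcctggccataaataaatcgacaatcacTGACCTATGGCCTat
Acot12: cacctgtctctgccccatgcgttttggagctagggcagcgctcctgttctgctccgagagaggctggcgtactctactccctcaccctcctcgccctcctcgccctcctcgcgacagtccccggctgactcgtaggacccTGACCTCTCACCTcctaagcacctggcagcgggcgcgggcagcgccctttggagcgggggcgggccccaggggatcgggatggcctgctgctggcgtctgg
Plin2: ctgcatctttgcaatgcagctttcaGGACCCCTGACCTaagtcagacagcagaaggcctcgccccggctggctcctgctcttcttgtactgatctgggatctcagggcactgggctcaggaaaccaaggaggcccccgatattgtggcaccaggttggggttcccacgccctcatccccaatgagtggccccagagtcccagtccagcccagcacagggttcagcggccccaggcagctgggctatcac
Hadha-Hadhb: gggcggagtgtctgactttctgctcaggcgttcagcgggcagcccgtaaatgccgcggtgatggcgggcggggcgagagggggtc

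Over the 250 bases before the RefSeq start, 30 of the 35 genes had a listed promoter. With up to 2 mismatches the repeat was found in 6 of them (Acot12, Acot4, Cd36, Etfa, Fabp1 and Plin2), against 3.24% of all 32851 promoters. With up to 1 mismatch it was found in Acot12 and Fabp1, against 0.48% of all promoters. The single element AGGTCA, which is part of the repeat, so that both searches overlap, was found in 8 of the 30 genes and in 14.0% of all promoters. The 6 genes with a repeat match did not share a direction: Acot12, Acot4, Etfa and Fabp1 were higher, Plin2 was lower and Cd36 was not called. These matches describe letters in a window and were not measured as binding.

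All 4 genes of the carnitine shuttle were called higher, with a median log2 fold change of 0.31. Cpt1a, the outer membrane enzyme that forms acylcarnitine and limits the entry of long chains, ranged from 50.2 to 97.9 FPKM (median 80.7) in PZH mice and from 50.8 to 70.9 FPKM (median 56.4) in control mice. Cpt1a was 1.33-fold higher (log2 fold change 0.39 ± 0.14 SE, adjusted p = 0.0351, limma). The groups overlapped because PZH 1 had the lowest value of all 12 mice, while the other 5 PZH mice were above the highest control mouse.

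Cpt2, which converts acylcarnitine back to acyl-CoA inside mitochondria, ranged from 24.6 to 37.7 FPKM (median 32.6) under PZH and from 22.4 to 29.2 FPKM (median 26.4) in controls. Its log2 fold change was 0.28 ± 0.10 SE (adjusted p = 0.0364), and 5 of 6 PZH mice lay above the highest control mouse. Slc25a20, the carnitine and acylcarnitine exchanger of the inner membrane, had 26.2 to 37.0 FPKM (median 32.4) against 23.3 to 31.8 FPKM (median 26.6). The log2 fold change of Slc25a20 was 0.27 ± 0.10 SE (adjusted p = 0.0402), with 3 of 6 PZH mice above all controls. Crat, which esterifies short acyl groups to carnitine, had 11.2 to 14.5 FPKM (median 12.7) against 8.29 to 11.9 FPKM (median 9.94). Crat (log2 fold change 0.33 ± 0.10 SE, adjusted p = 0.0155) was the 1 shuttle gene whose call held under all 20 alternative settings. Cpt1a held under 9 of the 20, Cpt2 under 10 and Slc25a20 under 7.

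The 4 acyl-CoA dehydrogenases, which catalyse the first oxidation of each round, were mostly not called: 1 of 4 was lower and none was higher. Their median log2 fold change was -0.08, which turned to 0.11 with the median-ratio factor. Acadl, for long chains, ranged from 74.2 to 94.3 FPKM (median 91.5) in PZH mice and from 89.8 to 112.0 FPKM (median 103.4) in control mice. Its log2 fold change of -0.20 ± 0.075 SE (adjusted p = 0.0469) was called in 3 of 20 alternatives. The PZH range ended within the control range, and PZH 1 lay below all other mice.

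Acadm, for medium chains, ranged from 79.99 to 129.6 FPKM (median 108.2) under PZH and from 84.3 to 132.6 FPKM (median 97.5) in controls, with a log2 fold change of 0.09 (95% interval -0.18 to 0.36, adjusted p = 0.60). Acadvl, for very long chains, ranged from 84.8 to 101.4 FPKM (median 95.02) and from 90.3 to 125.3 FPKM (median 94.1), with a log2 fold change of -0.09 that turned to 0.11 with the median-ratio factor. The groups overlapped in both genes. Acads, for short chains, was likewise not called (log2 fold change -0.08, interval -0.37 to 0.21).

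The later steps of the mitochondrial round were split. Hadha and Hadhb are the subunits of the trifunctional protein, which carries out the last 3 reactions on long chains, and they had log2 fold changes of 0.07 and 0.07 (95% intervals -0.13 to 0.27 and -0.23 to 0.36). Neither was called, and the groups overlapped in both. Of the 100-base windows of Hadhb 52.8% occur in the processed pseudogene Gm13910, so its level is uncertain where reads could be split. Hadh, the 3-hydroxyacyl-CoA dehydrogenase for short and medium chains (ENSMUSG00000027984, chr3:131233419-131272101, GRCm38), was higher. It ranged from 77.1 to 121.8 FPKM (median 102.8) in PZH mice and from 39.2 to 76.1 FPKM (median 61.2) in control mice, without overlap. This was a 1.68-fold higher level (101.5 ± 16.3 against 60.6 ± 12.5 FPKM, mean ± SD, n = 6 each), with a log2 fold change of 0.75 ± 0.15 SE and adjusted p = 0.00150 by limma.

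Acaa2, the mitochondrial thiolase that releases acetyl-CoA, was the fourth most abundant of the 35 genes over all 12 mice. It ranged from 190.0 to 292.7 FPKM (median 244.9) under PZH and from 168.1 to 230.2 FPKM (median 197.7) in controls, and 4 of 6 PZH mice were above all controls. Its log2 fold change was 0.31 ± 0.11 SE (adjusted p = 0.0305), a call that held in 13 of 20 alternatives.

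Of the 3 auxiliary enzymes for unsaturated chains, 1 was called. Decr1, the 2,4-dienoyl-CoA reductase of mitochondria, had 31.6 to 46.5 FPKM (median 43.4) in PZH mice against 27.9 to 41.8 FPKM (median 32.5) in control mice. Its log2 fold change was 0.30 ± 0.11 SE (adjusted p = 0.0431), with 4 of 6 PZH mice above all controls, and the call held in 7 of 20 alternatives. The isomerases Eci1 (0.09) and Eci2 (-0.09, or 0.09 with the median-ratio factor) were not called, and their group ranges overlapped.

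The electron transfer flavoprotein hands electrons from the acyl-CoA dehydrogenases to the respiratory chain, and 2 of its 3 genes were higher. Etfa, its alpha subunit (ENSMUSG00000032314, chr9:55454508-55512243), ranged from 66.2 to 92.1 FPKM (median 78.8) in PZH mice and from 52.8 to 65.1 FPKM (median 60.4) in control mice. The groups did not overlap, and the log2 fold change was 0.43 ± 0.09 SE (adjusted p = 0.00192). Etfdh, the dehydrogenase that passes the electrons to ubiquinone, ranged from 58.9 to 85.3 FPKM (median 74.7) and from 53.0 to 63.2 FPKM (median 60.5).

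Etfdh rose by 0.30 ± 0.09 SE on the log2 scale (adjusted p = 0.0154), and 5 of 6 PZH mice were above all controls. Etfb, the beta subunit, ranged from 69.8 to 145.4 FPKM (median 97.7) under PZH and from 56.4 to 112.7 FPKM (median 65.0) in controls and was not called (log2 fold change 0.41, adjusted p = 0.14). Its level differed with the transcripts listed. The short transcript Etfb-205 of 551 bases was listed at 69.6 to 96.6 FPKM in PZH 2, PZH 4, PZH 6, Control 3 and Control 6 and at 0.009 to 0.015 FPKM in the other 7 mice. Of the 100-base windows of Etfb-201, 65.2% also occur in the overlapping gene Gm45233. The 5 mice with Etfb-205 had the 5 highest Etfb levels of all 12, and the part of this assignment in the level was not tested.

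Bdh1, which interconverts the ketone bodies acetoacetate and 3-hydroxybutyrate (chr16:31422280-31458901), was lower in PZH mice. It ranged from 103.6 to 128.7 FPKM (median 115.7) under PZH and from 130.2 to 147.6 FPKM (median 138.2) in controls, without overlap. The log2 fold change was -0.26 ± 0.07 SE (adjusted p = 0.00697), and with the median-ratio factor it was -0.07 and was no longer called. The minor transcript Bdh1-203 was listed at 0 to 0.03 FPKM in PZH 1, PZH 2, PZH 5 and PZH 6. In PZH 3, PZH 4 and all control mice it was listed at 9.47 to 12.4 FPKM. The main transcript Bdh1-201 overlapped between groups (103.6 to 120.8 and 119.8 to 138.1 FPKM). It was not called among all transcripts (-0.19, adjusted p = 0.0644, limma), although the gene call held with the most abundant transcript only.

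**Figure D2:**
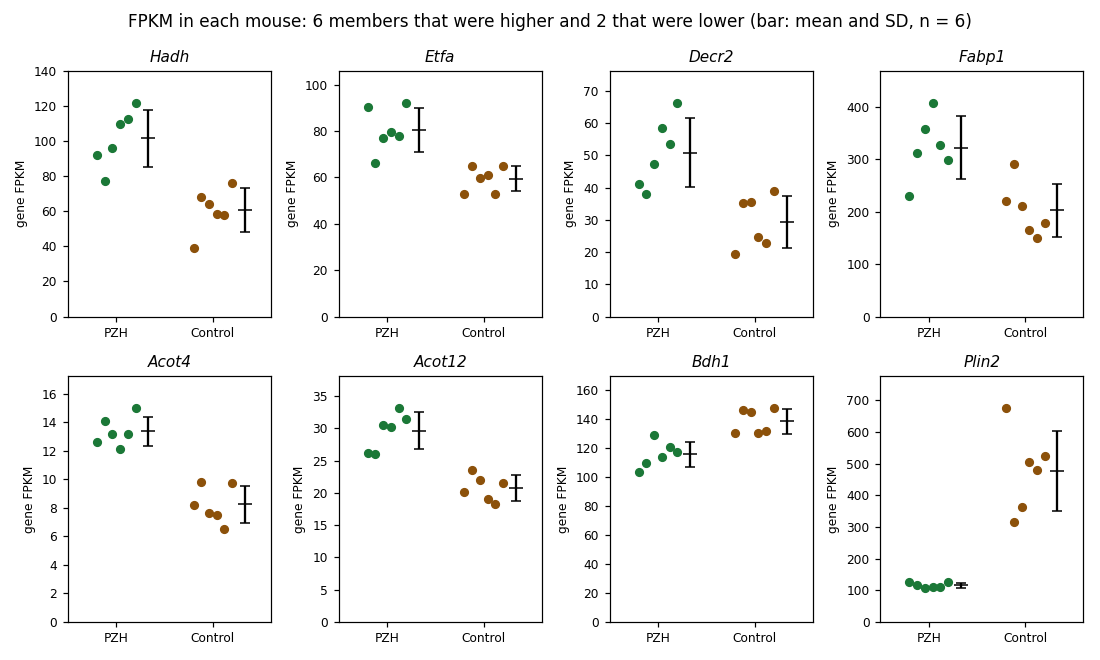
Gene FPKM (y axis, from 0) of each PZH and control mouse (points, n = 6 per group) for 6 genes that were higher and 2 that were lower, with black bars for mean and SD. Hadh, Etfa, Acot4 and Acot12 do not overlap between the groups, Decr2 and Fabp1 overlap at 1 PZH mouse, and Plin2 lies between 108.1 and 125.9 FPKM under PZH and between 316.2 and 675.4 FPKM in controls.

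Of the 5 peroxisomal enzymes 2 were higher and none was lower, with a median log2 fold change of 0.30 (0.18 without Control 1, the lowest with 1 mouse left out, to 0.42 without PZH 1). Decr2, the peroxisomal 2,4-dienoyl-CoA reductase, ranged from 37.9 to 66.3 FPKM (median 50.5) in PZH mice and from 19.4 to 38.8 FPKM (median 29.8) in control mice. It was 1.73-fold higher (log2 fold change 0.79 ± 0.18 SE, adjusted p = 0.00385), and PZH 2 alone fell within the control range. The log2 fold change of the peroxisomal reductase Decr2 was larger than the 0.30 of its mitochondrial counterpart Decr1, although the difference between both genes was not tested.

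Acaa1b, 1 of 2 closely related peroxisomal thiolases, ranged from 49.8 to 129.7 FPKM (median 93.7) under PZH and from 24.8 to 104.0 FPKM (median 43.4) in controls. Its log2 fold change was 0.91 ± 0.32 SE (adjusted p = 0.0330), a call that held in 12 of 20 alternatives, and Control 6 lay above 3 PZH mice. Acaa1a, the other thiolase, ranged from 9.07 to 19.9 FPKM (median 14.8) and from 6.65 to 16.9 FPKM (median 10.3) and was not called (log2 fold change 0.30, adjusted p = 0.26). Of the 100-base windows of Acaa1a 21.6% occur without mismatch in Acaa1b, so reads may have been split between them, and the separate values are uncertain. Their sum ranged from 62.0 to 144.7 FPKM (median 108.4) in PZH mice and from 31.5 to 120.9 FPKM (median 53.7) in control mice.

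Crot, which forms carnitine esters of medium chains leaving the peroxisome, ranged from 189.9 to 292.9 FPKM (median 245.9) under PZH and from 185.4 to 245.3 FPKM (median 224.5) in controls. It was not called (log2 fold change 0.17, 95% interval -0.06 to 0.41), but it was called higher with the median-ratio factor (0.37). Ehhadh, the peroxisomal bifunctional enzyme and a known PPARα target (chr16:21761287-21787807), ranged from 70.5 to 94.1 FPKM (median 87.5) under PZH and from 54.8 to 220.8 FPKM (median 84.5) in controls. Its coefficient of variation was 10.9% in PZH mice and 58.1% in control mice, where Control 4 (145.0 FPKM) and Control 6 (220.8 FPKM) stood far above the others. The log2 fold change of -0.20 ± 0.28 SE (adjusted p = 0.60) turned to 0.04 without Control 6, so no direction can be given for Ehhadh.

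The 5 acyl-CoA thioesterases went in different directions, 3 higher, 1 lower and 1 not called. Acot2, Acot1, Acot4 and Acot3 lie in this order on the + strand of chromosome 12 between 83987861 and 84060402. Acot4, a peroxisomal enzyme that acts on succinyl-CoA and other dicarboxylic acyl-CoA, ranged from 12.1 to 14.99 FPKM (median 13.2) in PZH mice and from 6.51 to 9.80 FPKM (median 7.91) in control mice. The groups did not overlap, and the level was 1.62-fold higher (log2 fold change 0.65 ± 0.09 SE, adjusted p = 0.000164).

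Acot3, a peroxisomal long-chain thioesterase, ranged from 1.57 to 7.46 FPKM (median 3.20) under PZH and from 0.711 to 1.48 FPKM (median 0.867) in controls, again without overlap. It was 3.57-fold higher in mean FPKM, and its log2 fold change of 1.11 ± 0.22 SE (adjusted p = 0.00135) is on the scale of FPKM + 1, which understates changes of genes at this low level. The highest value, 7.46 FPKM in PZH 6, consisted of 6.65 FPKM of the transcript Acot3-202, which was listed at 0 in the other 5 PZH mice. From the most abundant transcript alone no gene among the 35 passed 2-fold in the higher direction, although the call of Acot3 remained. Without PZH 6 this count was also 0.

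Acot2, the mitochondrial long-chain thioesterase, ranged from 5.70 to 8.87 FPKM (median 6.33) in PZH mice and from 8.36 to 19.7 FPKM (median 11.2) in control mice. It was 1.83-fold lower (log2 fold change -0.75 ± 0.19 SE, adjusted p = 0.00570), and 4 of 6 PZH mice were below all controls. Acot1, its cytosolic neighbour, ranged from 1.66 to 3.90 FPKM (median 2.85) and from 1.76 to 4.62 FPKM (median 2.13) and was not called (log2 fold change 0.03, 95% interval -0.45 to 0.51, with a sign that depended on the mouse left out). Exact 100-base windows shared with other genes made up 17.1% of Acot2, 21.9% of Acot1, 14.3% of Acot3 and 0.4% of Acot4, so the first 3 are uncertain where reads could be split.

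The mix of the cluster is given by ratios within each mouse. The ratio of Acot2 to Acot1 had a median of 2.60 in PZH mice (1.46 to 5.02) and 4.79 in control mice (4.02 to 5.92). The ratio of Acot4 to Acot3 had a median of 4.21 (2.01 to 8.04) and 8.17 (6.14 to 13.7). The sum of the 4 genes was 26.7 ± 3.1 FPKM under PZH and 24.7 ± 6.2 FPKM in controls (SD, n = 6), and these sums overlapped.

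Acot12, a cytosolic thioesterase for acetyl-CoA that lies on chromosome 13, shared no 100-base window with any other gene. It ranged from 26.1 to 33.2 FPKM (median 30.4) in PZH mice and from 18.2 to 23.5 FPKM (median 20.9) in control mice, without overlap. The log2 fold change was 0.49 ± 0.08 SE (adjusted p = 0.000381).

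**Figure D3:**
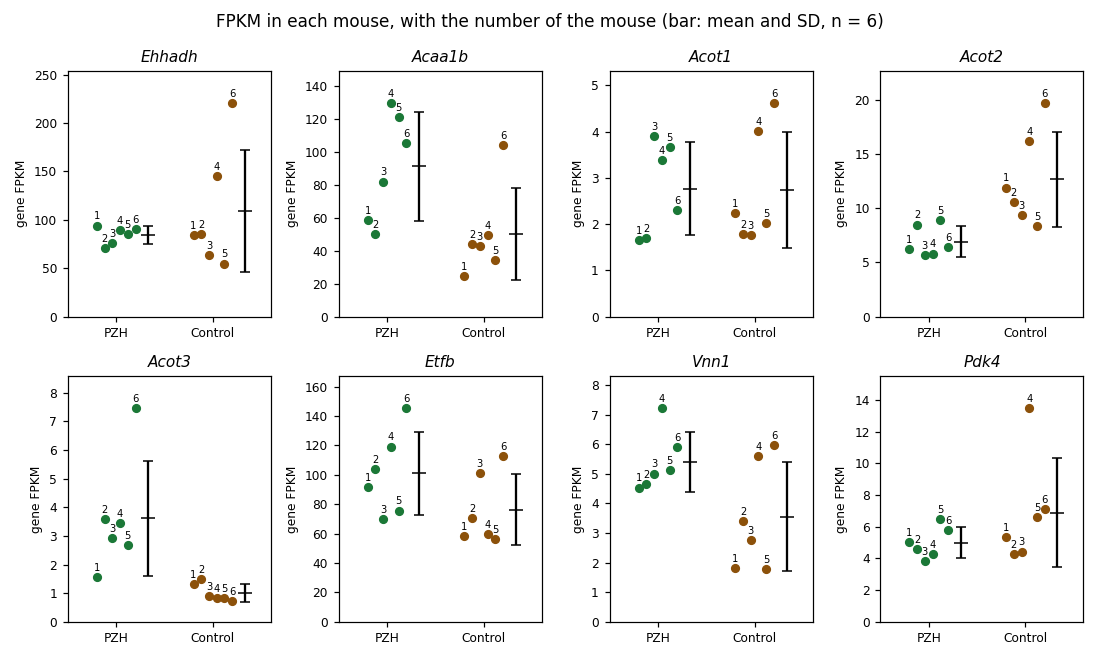
Gene FPKM (y axis, from 0) of each mouse, numbered within its group (n = 6 per group), for 8 genes with large spread or shared sequence, with black bars for mean and SD. Control 4 and Control 6 are the 2 highest control mice for Ehhadh, Acaa1b, Acot1, Acot2 and Vnn1, whereas Acot3 separates the groups and PZH 6 stands highest at 7.46 FPKM.

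Among the 6 genes of lipid handling and fuel choice, Plin2 showed the largest fold change of all 35. Plin2 coats the lipid droplets of hepatocytes (ENSMUSG00000028494, chr4:86656565-86670060), and its mRNA is known to rise with stored fat. It ranged from 108.1 to 125.9 FPKM (median 113.0) under PZH and from 316.2 to 675.4 FPKM (median 491.1) in controls. The level was 4.11-fold lower in PZH mice (115.9 ± 7.9 against 476.6 ± 127.6 FPKM, mean ± SD, n = 6 each), with a log2 fold change of -1.99 ± 0.15 SE and adjusted p = 7.17e-06 by limma. The PZH mice were also more alike, with a coefficient of variation of 6.84% against 26.8%.

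Fabp1, the liver fatty acid binding protein of the cytosol (chr6:71199827-71205023), moved in the opposite direction. It ranged from 229.9 to 408.2 FPKM (median 320.1) in PZH mice and from 150.9 to 291.4 FPKM (median 194.7) in control mice, and PZH 1 alone fell within the control range. The log2 fold change was 0.68 ± 0.16 SE (adjusted p = 0.00483). By median level, Plin2 was the most abundant of the 35 genes in controls, whereas Fabp1 was in PZH mice.

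The other 4 genes of this role were not called. Cd36, a fatty acid uptake protein, had 36.4 to 51.0 FPKM against 28.7 to 39.7 FPKM (log2 fold change 0.24, adjusted p = 0.0502). Vnn1, a pantetheinase and PPARα target, had 4.53 to 7.22 FPKM against 1.79 to 5.97 FPKM (0.57, adjusted p = 0.0535), and both genes were called higher with the median-ratio factor. Pdk4, which shifts fuel use away from glucose by blocking pyruvate dehydrogenase, and Angptl4, an inhibitor of lipoprotein lipase, had log2 fold changes of -0.32 and -0.16 (0.02 for Angptl4 with the median-ratio factor), and their groups overlapped.

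The summed level of the 35 genes was alike in both groups although its make-up was not. It ranged from 2088 to 2656 FPKM (median 2471) in PZH mice and from 2160 to 2945 FPKM (median 2409) in control mice. Plin2 alone made up 4.25% to 5.52% of this sum under PZH and 13.3% to 27.6% in controls. Without Plin2 the sum of the other 34 genes had a median of 2362 FPKM under PZH (1972 to 2530) and 1916 FPKM in controls (1681 to 2421). The summed mitochondrial enzymes had medians of 1414 FPKM (1189 to 1586) and 1228 FPKM (1102 to 1494), and the summed peroxisomal enzymes 509 FPKM (360.3 to 569.8) and 390.4 FPKM (324.9 to 625.9). All these sums overlapped between groups.

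**Figure D4:**
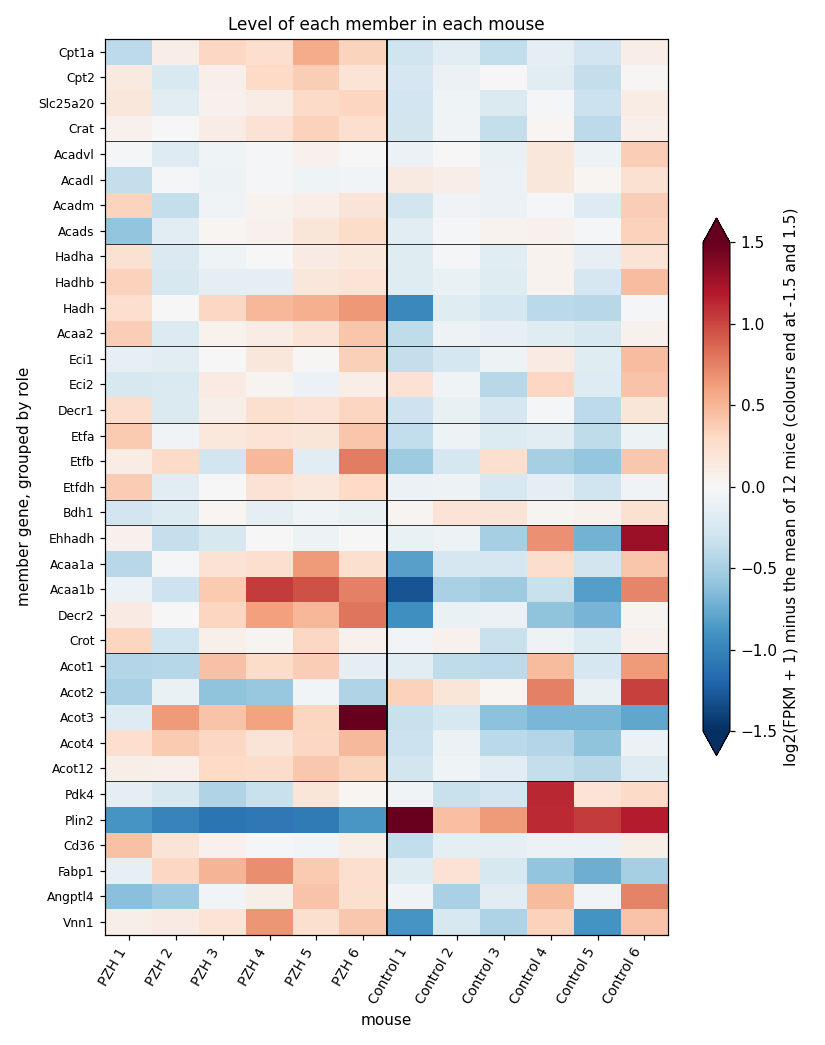
Deviation of log2(FPKM + 1) from the mean of 12 mice (colour, red above and blue below) for each of the 35 genes (rows, grouped by role) in each mouse (columns, n = 6 per group). Most rows are red in PZH 3 to PZH 6 and blue in Control 1, Control 3 and Control 5, while Control 6, with 28 of 35 genes above their mean, is mostly red, and PZH 2, with 9, is mostly blue.

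Single mice stood apart within both groups. The number of the 35 genes above their 12-mouse mean was 19, 9, 23, 25, 27 and 30 in PZH 1 to PZH 6, and 5, 6, 5, 17, 4 and 28 in Control 1 to Control 6. Control 6 was the highest control mouse for 29 of the 35 genes and for all 19 mitochondrial enzymes, against 21.7% of all genes. PZH 2 was the lowest PZH mouse for 18 of the 35 genes and for 13 of the 19 mitochondrial enzymes, against 12% of all genes. Without Control 6, 17 genes were called higher and 3 lower, and without PZH 2, 16 and 3. Without PZH 6, Control 1 or Control 5 the count of higher genes fell to 9. Calls that held under all 20 alternatives were those of Crat, Hadh, Etfa, Decr2, Acot3, Acot4, Acot12 and Fabp1 for higher levels, and of Acot2 and Plin2 for lower levels.

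At the level of transcripts, the 35 genes had 75 listed transcripts, of which 7 were called higher and 5 lower, against 5.73% and 14.0% of all 29883 transcripts. The higher ones were Acot12-201, Acot3-201, Acot4-201, Decr2-201, Etfa-201, Fabp1-201 and Hadh-201, and the lower ones Acot2-201, Bdh1-203, Plin2-201, Plin2-205 and Plin2-206. In 16 genes with 2 or more transcripts, the share of the most abundant transcript was called in none, and in 0.0% of 7319 genes tested. That count of 0 comes from a two-sided exact permutation test with Benjamini-Hochberg adjustment. At an unadjusted p under 0.05 the counts were 0 of 16 and 890 of 7319. The lowest p among the 16 was 0.0541 for Bdh1, whose transcript Bdh1-201 held 97.2% ± 4.3 of the gene under PZH and 92.3% ± 0.8 in controls (SD, n = 6 each). For Acadvl the share of Acadvl-202 was 66.4% ± 36.9 and 91.0% ± 22.0, and Acadvl-201 was listed at 49.2 to 66.8 FPKM in PZH 1, PZH 3, PZH 6 and Control 1 and at 0 in the other 8 mice.

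Other genes of the same and related pathways, from lists compiled separately from the 35, moved in both directions. These lists too were chosen with earlier results of these data known. Of 112 such genes 110 were measured, 42 were higher and 13 lower, and their median log2 fold change was 0.17. Of all genes 12.7% were higher and 32.1% lower. With the median-ratio factor 53 were higher and 10 lower, against 19.8% and 19.3% of all genes. Among the 27 genes listed as further mitochondrial oxidation and ketone body genes, 16 were higher and none was lower. These 16 include Acacb, whose product inhibits Cpt1a. They also include Aldh4a1, Hibch, Acad8, Acadsb and Pcca, which act mainly in amino acid breakdown. The count of 16 is therefore not one of fatty acid oxidation and ketone body genes alone. Among 32 further peroxisomal genes 13 were higher and 1 lower, among 14 acyl-CoA synthetases and fatty acid transporters 4 and 3, among 21 regulators 6 and 5, and among 16 lipid droplet and lipolysis genes 3 and 4.

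The 5 largest increases among them were in Nudt7, a peroxisomal hydrolase of coenzyme A, in Hacl1, which cleaves branched and hydroxylated chains, in Pecr, a peroxisomal enoyl-CoA reductase, in Acacb, whose product malonyl-CoA inhibits Cpt1a, and in Acsl1, which activates long-chain fatty acids. Nudt7 ranged from 45.7 to 80.6 FPKM under PZH and from 12.3 to 25.0 FPKM in controls (log2 fold change 2.05 ± 0.19 SE, adjusted p = 1.43e-05). Acsl1 ranged from 76.4 to 146.8 FPKM and from 29.7 to 53.3 FPKM (1.27 ± 0.17 SE, adjusted p = 8.64e-05). Hacl1, Pecr and Acacb had log2 fold changes of 1.35, 1.32 and 1.28, and none of the 5 overlapped between groups.

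The 5 largest decreases were in Hilpda, a lipid droplet protein that inhibits lipolysis, in the hormone Fgf21, in the droplet fusion protein Cidec, in the nuclear receptor Pparg and in the droplet coat protein Plin3. Hilpda ranged from 1.54 to 2.27 FPKM under PZH and from 5.48 to 19.4 FPKM in controls (log2 fold change -1.89 ± 0.23 SE, adjusted p = 5.61e-05). The values for Fgf21, Cidec, Pparg and Plin3 were -1.66, -0.91, -0.78 and -0.72, with overlap of the groups in Fgf21 and Pparg. Ppara, which encodes PPARα and was looked up after its values were seen, had 37.5 to 48.9 FPKM under PZH and 13.4 to 30.9 FPKM in controls (0.92 ± 0.16 SE, adjusted p = 0.000535). It is 1 of the 21 regulators, of which 6 were higher and 5 lower, and is not among the 5 largest increases.

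**Figure D5:**
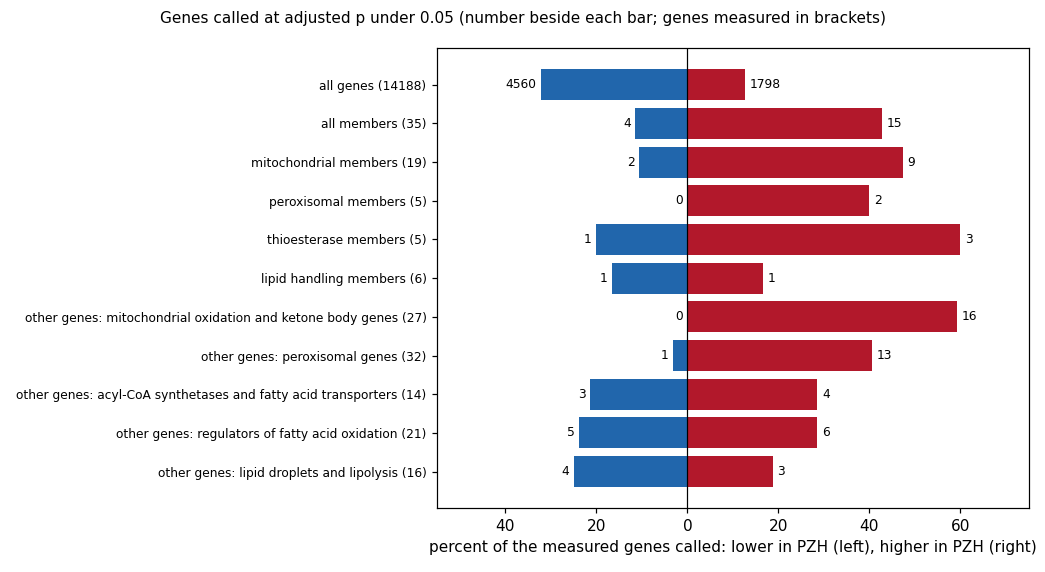
Percent of the measured genes of each list (y axis, number measured in brackets) that were called lower (blue, to the left) or higher (red, to the right) in PZH mice at adjusted p under 0.05, with the number of genes beside each bar. Over all genes more were lower than higher (4560 against 1798). Of the list, 15 of 35 genes are higher. In the further list of mitochondrial oxidation and ketone body genes, which also holds Acacb and genes of amino acid breakdown, 16 of 27 are higher.

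Several marker lists were set beside the oxidation genes, and of all genes 12.7% were called higher and 32.1% lower. Of 10 hepatocyte markers 4 were higher and none was lower, and their summed level was 48280 to 63880 FPKM under PZH and 30520 to 43380 FPKM in controls, with albumin as the largest single transcript (10.2% to 12.7% of all FPKM against 5.54% to 8.86%). Of 10 macrophage markers 2 were higher and 3 lower (sums 356.7 to 545.4 and 372.2 to 482.3 FPKM), of 10 sinusoidal endothelial markers none was higher and 2 were lower (126.4 to 164.3 and 141.4 to 158.9 FPKM), and of 10 stellate cell markers 2 were higher and 3 lower (309.5 to 397.7 and 245.8 to 370.2 FPKM). Of 6 adipocyte markers 3 were listed and 1 was lower (sums 6.76 to 8.32 and 7.22 to 19.2 FPKM), and the defining marker Adipoq was at most 0.0895 FPKM in PZH mice and 0.935 FPKM in control mice. Of 14 clock genes 8 were higher and 2 lower (112.7 to 162.6 and 70.2 to 103.9 FPKM), and of 10 fasting and glucocorticoid response genes 5 were higher and 2 lower (659.1 to 1185 and 630.9 to 1155 FPKM). The hour of killing and the feeding state are not given in the sources used here, and the part of these lists in the levels of the 35 genes was not tested.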

How the data were processed

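For 12 mice, the authors made rRNA-depleted, strand-specific libraries from liver RNA. Per the labels and the study's methods, reads were trimmed with Trimmomatic, mapped with HISAT2 to GRCm38 and assembled with StringTie on the Ensembl release 95 annotation. The authors deposited FPKM per protein-coding transcript and mouse. No read counts were used here, so depth is unknown and precision rests on how the mice of a group differ. The deposited FPKM of 29876 of 29883 transcripts were assigned to 14188 genes with GENCODE M21 and summed. Log2(FPKM + 1) was compared with limma 3.58.1 (R 4.3.3) over all genes and 12 mice, and transcript shares and single values by exact permutation over 924 labellings. The lowest sum of a listed transcript over 12 mice was 1.0 FPKM, so lower ones were absent from the table. FPKM sums per library were 326060 to 370426 under PZH and 325302 to 334194 in controls, and median-ratio factors 0.875 to 1.005 and 1.03 to 1.11. In simulated data with 14188 genes, 96 of 100 genes changed by 1.5 log2 units and 59 of 100 changed by 0.5 were recovered, with 8 unchanged genes called. The members and gene lists were chosen with earlier results of these data known. Per-mouse values are given for genes called, genes with a mean of at least 100 FPKM and paralogs. Of other pathway genes the 5 largest changes per direction are named with values. Ppara lies outside this rule and was added after its values were seen. The alternatives tried were another pseudocount (0.1), a filter (mean FPKM of at least 1), a median-ratio factor, equal FPKM sums, a mean-variance trend, no variance moderation, the mouse number as a block, the most abundant transcript, and each mouse left out. lncRNA, staining, serum and protein data were not analysed here.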

Additional observations from a re-analysis of the deposited data

Results flagged for a closer look

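In 1 of the 70 groups tested (35 genes in each of 2 groups), 1 mouse lay far from the other 5 by Dixon's ratio of gap to range, a test that marks about 1 in 20 groups by chance. Acadl was 74.16 FPKM in PZH 1, whereas the other 5 PZH mice lay between 90.1 and 94.3 FPKM (ratio 0.809). Among the PZH mice, PZH 1 also had the lowest level of Cpt1a, Acads, Acaa1a and some other genes. It had the highest level of Acadm, Hadha, Hadhb, Etfdh, Ehhadh, Crot and Cd36. Its FPKM sum of 370426 was the highest of the 12 libraries, and its median-ratio factor of 0.875 the lowest.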

How the results depend on the processing

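Of 20 alternatives, the median-ratio scale factor moved the most values. With it, 2 genes of the 35 were lower in place of 4, 2 in place of 1 passed 2-fold higher, 2807 of all genes were higher and 2739 lower, 19 in place of 12 transcripts were called, and the median log2 fold changes were 0.45 (35 genes), 0.45 (mitochondrial) and 0.48 (peroxisomal). Values not called that changed sign with it were Acadvl (0.11), Acads (0.11), Eci2 (0.093) and Angptl4 (0.016). Acot1 changed sign with equal FPKM sums (-0.001) and with the most abundant transcript only (-0.12), where 0 genes passed 2-fold higher. The factor sets the median of all genes near 0 (-0.001 in place of -0.11) by construction.

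With 1 mouse left out, 9 to 17 genes were higher and 3 to 4 lower (9 without PZH 6, Control 1 or Control 5), and 0 to 2 passed 2-fold higher (0 without PZH 6, 2 without PZH 1, PZH 2 or Control 6). Changes of sign were seen in Acads (-0.139 to 0.033 over the 12, positive without PZH 1), Ehhadh (-0.36 to 0.038, positive without Control 6) and Acot1 (-0.057 to 0.158, negative without PZH 3, 4 or 5 or Control 1, 2, 3 or 5). Calls were lost for Cpt1a (highest adjusted p = 0.075) without PZH 3 to 6 or Control 1 to 5, for Cpt2 (0.0824) without PZH 1, 4, 5 or 6 or Control 1, 4 or 5, for Slc25a20 (0.0897) without PZH 1 or 3 to 6 or Control 1, 3 or 5, for Acaa2 (0.0695) without PZH 1, 5 or 6 or Control 1, 4 or 5, for Decr1 (0.0963) without PZH 1 or 3 to 6 or Control 1, 2, 3 or 5, for Acaa1b (0.0736) without PZH 4, 5 or 6 or Control 1, 2, 3 or 5, and for Acadl (0.0994) without any mouse but Control 3. The cause was not tested.

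Mouse numbers did not pair the groups: same-numbered mice correlated between -0.07 and 0.08 in their deviations from the group means, and 1 of 6 PZH mice (number 5) correlated best with its own number. With the number as a replicate block, 13 genes were higher and 3 lower, and 1694 and 4288 of all genes, and the calls of Cpt2, Slc25a20, Acadl and Acaa2 (adjusted p = 0.0506) were lost and Vnn1 was called. No other count of genes moved by over 1.5 times under the alternatives run. The depth behind the FPKM is unknown. In simulated data 59 of 100 changes of 0.5 on the log2 scale were recovered. Far fewer genes were changed there than were called here, so this share need not hold for these data. Among the genes not called, the main confidence intervals of Acadvl, Acadm, Acads, Hadha, Hadhb, Eci1, Eci2, Crot and Cd36 excluded a change of 0.5. The main intervals of Etfb, Ehhadh, Acaa1a, Acot1, Pdk4, Angptl4 and Vnn1 included a change of that size, so these genes may still differ by such amounts. The exclusion depends on the scale. With the median-ratio factor Crot (0.37 ± 0.12 SE) and Cd36 (0.43 ± 0.10 SE) were called higher. Acadm (0.28 ± 0.14 SE), Hadhb (0.25 ± 0.14 SE) and Eci1 (0.28 ± 0.14 SE) also had larger estimates there. For these 5 genes the exclusion need not hold on that scale.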
